A study of Mus musculus with 12 samples.

Results

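The enzymes described here build the sphingolipids of myelin, the lipid-rich sheath around axons. They are the 9 genes Ugt8a, Gal3st1, Fa2h, Cers2, Elovl1, Elovl7, Aspa, Sptlc2 and Sgms1, taken from a table of 46078 genes by matching each Ensembl identifier to its mouse symbol. All 9 were found, and all 9 were among the 15866 genes with enough counts to be tested. The samples were white matter of the ventrolateral spinal cord of C57Bl6 mice, isolated from frozen sections by laser capture microdissection (a laser cuts out the wanted tissue under a microscope). Young mice were 6 weeks old and middle-aged mice 8 months old. These ages come from the written methods, while the labels hold only the words young and middle-aged. Injured white matter was taken 72 h (day 3) after lysolecithin, a detergent that strips myelin from axons, was injected locally. Naïve white matter came from mice described only as naïve, so no vehicle injection stands beside the lesion, and no transgene or deletion is named for any group. Each of the 4 groups had 3 libraries, and each library held tissue pooled from 5 mice, and variation from mouse to mouse within a pool is therefore not seen.

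Myelin holds an unusual amount of galactosylceramide and of its sulfated form, sulfatide, and much of both carries very long and hydroxylated fatty acids. Their synthesis starts where serine palmitoyltransferase joins serine to a fatty acid. Ceramide synthases then attach an acyl chain, which elongases have lengthened, and the resulting ceramide receives either galactose, to become galactosylceramide, or phosphocholine, to become sphingomyelin. Oligodendrocytes, which form myelin in the central nervous system, galactosylate ceramide at high rates, whereas the entry step and sphingomyelin synthesis run in most cells.

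Library totals ran from 9834447 to 12807437 counts, and no member had fewer than 123 counts in any pool, against a floor of 3 counts for detection (0.234 to 0.305 CPM). CPM here means a gene's share of a library total that was adjusted by trimmed mean of M values (TMM) factors, on a scale of 1e+06 counts. The dissected tissue was checked against 6 oligodendrocyte markers (Mbp and Mog among them), of which 0 were at 0 in any group. Their summed level ranged from 86699 to 101950 CPM in young and 53009 to 60301 in middle-aged naïve pools, and from 18251 to 20256 in young and 7930 to 12447 in middle-aged injured pools. In these bulk samples, fewer cells of a type and less RNA per cell cannot be told apart. Summed over 6 pan-myeloid markers, the level was 28.8 to 41.9, 61.4 to 115, 1364 to 1399 and 1513 to 1959 CPM in the same order. Markers of Schwann cells, the myelin-forming cells of peripheral nerve, summed to at most 5.56 CPM except in 1 young injured pool, at 32.0 CPM, and 8 members fell in young mice whichever injured pool was left out. In naïve and injured pools of both ages, the summed markers ranged from 58.8 to 99.8 and 288 to 1025 CPM for fibroblasts, 8326 to 10484 and 3267 to 5138 for astrocytes, 155 to 297 and 292 to 536 for oligodendrocyte progenitors and 115 to 200.2 and 143 to 223 for endothelium. Some of the latter sums also differed with age without overlap. Progenitor markers held 222 to 297 CPM in young and 155 to 174 in middle-aged naïve pools. In lesions they held 404 to 536 and 292 to 324 CPM, in that order of ages. Endothelial markers held 115 to 149 and 168 to 200.2 CPM in naïve tissue, and 143 to 195 and 198 to 223 in lesions. Fibroblast markers held 634 to 1025 and 288 to 556 CPM in lesions. Naïve fibroblast sums and all astrocyte sums overlapped between ages. The part of these shifts in cell content in the results below was not tested. The ratios to oligodendrocyte markers given after the comparisons cannot test it, since the markers are themselves RNA levels.

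**Figure D1:**
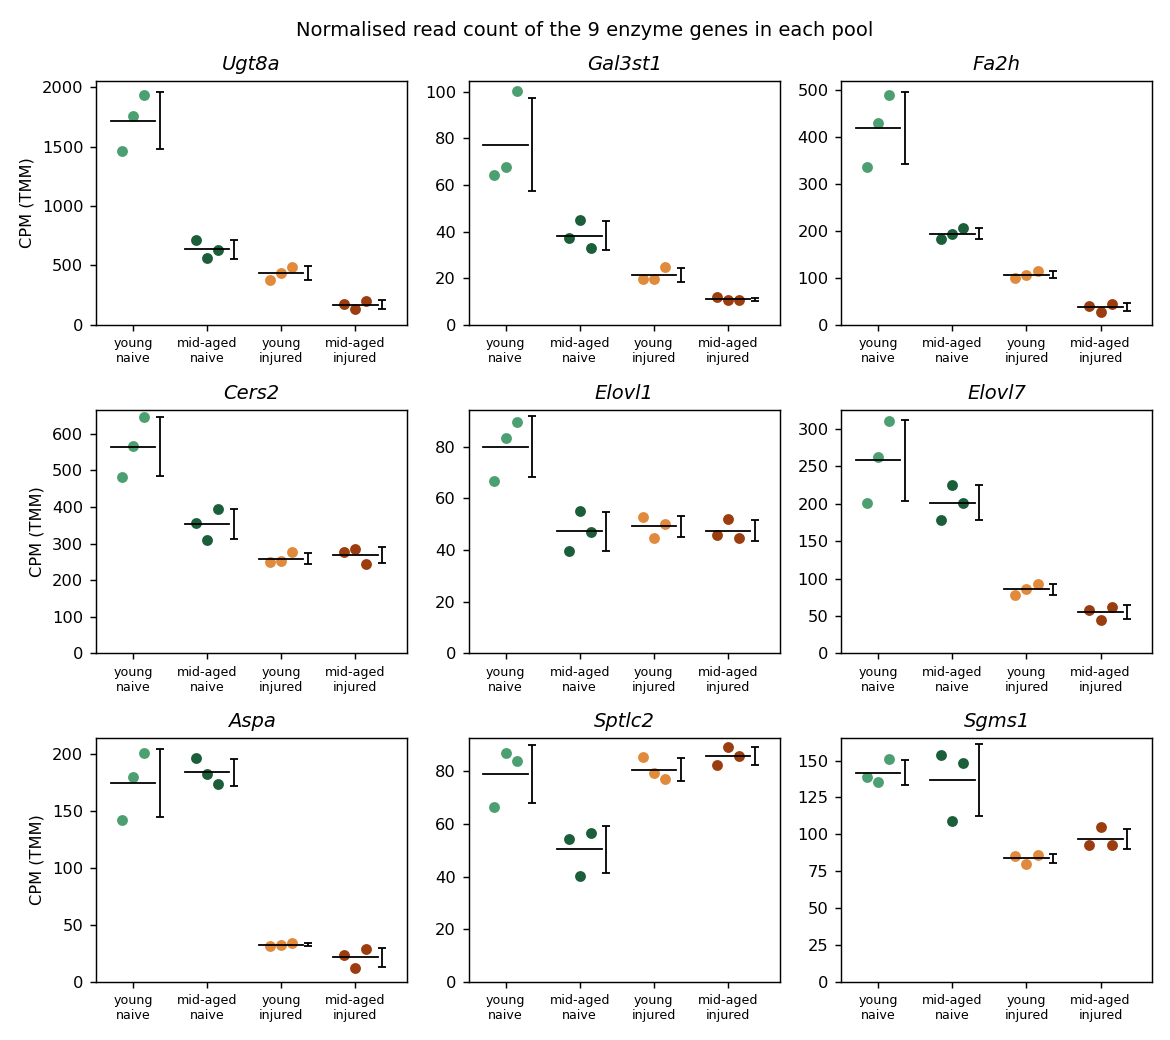
Normalised read count (CPM, vertical axis from 0, a scale of its own for each gene) of the 9 enzyme genes in each of the 12 pools, with the group mean (line) and SD (bar). Ugt8a, Gal3st1 and Fa2h step down from young to middle-aged naïve pools and again to the injured pools of each age, Aspa overlaps between the naïve groups and is low in both injured groups, and Sptlc2 is lowest in the middle-aged naïve pools.

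The question asked first was how the lesion changed the enzymes at each age. In young mice 0 of the 9 genes rose with injury and 8 fell, all but Sptlc2, where 28.3% of all genes tested rose and 26.3% fell (edgeR's quasi-likelihood test, adjusted p under 0.05). In middle-aged mice 1 rose, Sptlc2, and 7 fell, all but Elovl1, where 29.2% of all genes rose and 29.3% fell. The median log2 fold change of the 9 genes was -1.59 in young and -1.79 in middle-aged mice, beside 0.00054 and -0.032 over all genes. Aspa had the lowest log2 fold change of the 9 at both ages.

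The question asked next was how the enzymes differed with age. In naïve white matter 0 of the 9 genes were higher at middle age and 6 were lower (Ugt8a, Gal3st1, Fa2h, Cers2, Elovl1 and Sptlc2), where 2.02% of all genes were higher and 1.78% lower. In the same pools mt-Rnr2, a mitochondrial ribosomal RNA gene, took 9.90% to 12.4% of counts in young and 13.9% to 15.4% in middle-aged naïve tissue, without overlap, and its part in these differences was not tested. Middle-aged naïve replicate 2 stood apart from the other 2 pools of its group (chi-square per degree of freedom 35.7 and 32.7, against 12.4 between those), and without it 6 members were lower too. In injured white matter 0 were higher and 3 were lower (Ugt8a, Gal3st1 and Fa2h), where 0.24% of all genes were higher and 0.908% lower. The median log2 difference between ages was -0.68 in naïve and -0.59 in injured mice, beside 0.013 and 0.0022 over all genes. Each count of 0 higher members was also 0 at an unadjusted p under 0.05 and with DESeq2. In a model of the 6 naïve pools, 2 of the 6 naïve calls were kept, Ugt8a and Fa2h. The comparisons share pools: both age comparisons and both injury comparisons are made from the same 4 groups.

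**Figure D2:**
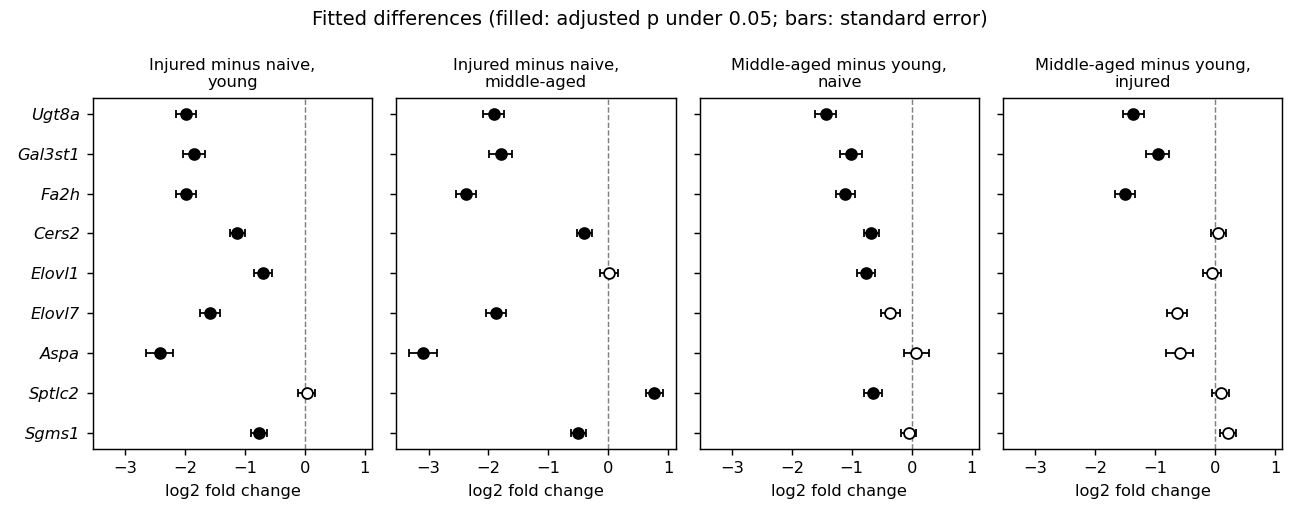
Fitted log2 fold changes (horizontal axis) of the 9 enzyme genes with their standard errors (bars) for the injury effect at each age and the age effect in naïve and in injured mice. Filled points have an adjusted p under 0.05. Ugt8a, Gal3st1 and Fa2h are filled and left of 0 in every panel, whereas Cers2, Elovl1 and Sptlc2 lie left of 0 with age in naïve mice and close to it in injured mice.

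Ugt8a encodes the galactosyltransferase that turns ceramide into galactosylceramide. Its gene (GRCm38, chr3:125865271-125938619) is transcribed from the minus strand, and no other annotated gene overlaps it. Its level in the 3 young naïve pools was 1461, 1759 and 1937 CPM, and in the middle-aged naïve pools 716, 559 and 629. In the young injured pools it was 376, 436 and 489 CPM, and in the middle-aged injured pools 173, 130 and 203. The 4 groups did not overlap, with middle-aged naïve pools above young injured ones. The log2 fold change with injury was -1.99 (standard error 0.17, edgeR adjusted p = 2.67e-07) in young and -1.91 (0.17, adjusted p = 3.41e-07) in middle-aged mice, which left 25.2% ± 3.31 and 26.6% ± 5.82 (SD, n = 3 pools) of the naïve mean. With age it was lower by a log2 difference of -1.44 (standard error 0.17, edgeR adjusted p = 0.000544) in naïve and -1.36 (0.17, adjusted p = 0.00175) in injured mice. The interaction, the injury effect in middle-aged minus that in young mice, was 0.07 with a standard error of 0.24 (edgeR adjusted p = 0.959).

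Gal3st1 encodes the sulfotransferase that makes sulfatide from galactosylceramide. It stands next to Ugt8a in the route and moved the same way in all 4 comparisons, at a lower level. The young naïve pools held 64.1, 67.7 and 100.1 CPM, the middle-aged naïve pools 37.1, 44.9 and 32.9, the young injured pools 19.7, 19.8 and 24.9 and the middle-aged injured pools 11.8, 10.7 and 10.6. The groups did not overlap here either, although replicate 3 of the young naïve pools stood above the other 2. With injury its log2 fold change was -1.85 (standard error 0.19, edgeR adjusted p = 1.36e-06) in young and -1.79 (0.19, adjusted p = 2.19e-06) in middle-aged mice. With age it was lower by a log2 difference of -1.01 (standard error 0.18, edgeR adjusted p = 0.00729) in naïve and -0.96 (0.19, adjusted p = 0.0275) in injured mice. The call in injured mice rests on all 6 injured pools: without any 1 of them its edgeR adjusted p was between 0.0692 and 0.189. The naïve call was lost in a model of the 6 naïve pools (adjusted p = 0.113).

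Fa2h encodes the hydroxylase that places a hydroxyl group on the fatty acids of galactosylceramide and sulfatide. It stood at 337, 431 and 490 CPM in the young naïve pools and at 184, 193 and 207 in the middle-aged naïve pools. After injury it stood at 99.3, 106 and 114 CPM in young and at 40.6, 28.2 and 43.9 in middle-aged mice. No group overlapped another. The log2 fold change with injury was -1.98 (standard error 0.17, edgeR adjusted p = 2.05e-07) in young and -2.37 (0.17, adjusted p = 3.68e-08) in middle-aged mice, so that 25.4% ± 1.81 and 19.3% ± 4.26 (SD, n = 3) of the naïve mean was left. The difference with age was -1.11 (standard error 0.16, edgeR adjusted p = 0.00211) in naïve and -1.50 (0.17, adjusted p = 0.00133) in injured mice. The interaction was -0.39 (standard error 0.23, edgeR adjusted p = 0.627).

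Cers2 encodes the ceramide synthase that prefers very long acyl chains, and Elovl1 the elongase that supplies them. Cers2 stood at 483, 566 and 646 CPM in young naïve and at 356, 310 and 395 in middle-aged naïve pools. In injured pools of the 2 ages it overlapped, with 249, 252 and 276 CPM in young and 277, 284 and 245 in middle-aged mice. The log2 fold change with injury was therefore -1.13 (standard error 0.13, edgeR adjusted p = 4.32e-06) in young and -0.40 (0.13, adjusted p = 0.0152) in middle-aged mice, and the latter call was lost without middle-aged naïve replicate 3 (adjusted p = 0.0735) or middle-aged injured replicate 3 (adjusted p = 0.0735), and with library totals in place of TMM (adjusted p = 0.0794). With age Cers2 was lower in naïve mice, the log2 difference being -0.68 (standard error 0.13, edgeR adjusted p = 0.00978), and in injured mice the difference was 0.05 (0.13, adjusted p = 0.995).

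Elovl1 stood at 66.9, 83.4 and 89.7 CPM in young naïve pools, above all other pools, which lay between 39.6 and 55.0 CPM whatever their age or treatment. Young mice had a log2 fold change with injury of -0.70 (standard error 0.15, edgeR adjusted p = 0.00112), against 0.01 at middle age (0.15, adjusted p = 0.959). In naïve mice it was lower with age, the log2 difference being -0.76 (standard error 0.15, edgeR adjusted p = 0.0125), a call lost without young naïve replicate 2 (adjusted p = 0.0569). In injured mice the difference was -0.05 (0.15, adjusted p = 0.995). Exons of both genes overlap an antisense neighbour, and the strand setting of the counting was not stated: Cers2 shares 75 bases with Setdb1, at 447 to 738 counts per pool, and Elovl1 shares 53 bases with Cdc20, at 3 to 11 counts in naïve and 104 to 267 in injured pools.

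Elovl7 encodes a further elongase, of long saturated fatty acids. Its levels were 202, 262 and 311 CPM in young naïve pools and 178, 225 and 201 in middle-aged naïve pools, which overlapped. After injury they were 78.4, 86.0 and 92.5 CPM in young and 57.5, 44.8 and 62.3 in middle-aged mice, which did not overlap. The log2 fold change with injury was -1.59 (standard error 0.17, edgeR adjusted p = 1.80e-06) in young and -1.88 (0.17, adjusted p = 3.50e-07) in middle-aged mice. Neither age difference passed the threshold, with -0.36 (standard error 0.16, edgeR adjusted p = 0.261) in naïve and -0.64 (0.17, adjusted p = 0.0930) in injured mice. The latter was called under 5 alternatives: with no filter on low counts (edgeR adjusted p = 0.00830), in a model of the 6 injured pools (adjusted p = 0.0125), with DESeq2 (adjusted p = 0.0248), without middle-aged naïve replicate 2 (adjusted p = 0.0459) and with library totals (adjusted p = 0.0498).

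Aspa encodes aspartoacylase, which splits N-acetylaspartate from axons and so frees acetate for the synthesis of myelin lipids. Its 3 young naïve pools held 142, 180 and 201 CPM and its middle-aged naïve pools 197, 182 and 173, which overlapped. The injured pools held 31.1, 32.2 and 34.0 CPM in young and 23.3, 12.5 and 28.9 in middle-aged mice, far under every naïve pool and without overlap between the ages. With injury its log2 fold change was -2.42 (standard error 0.23, edgeR adjusted p = 5.69e-07) in young and -3.09 (0.23, adjusted p = 6.03e-08) in middle-aged mice, which left 18.6% ± 0.847 and 11.7% ± 4.55 (SD, n = 3) of the naïve mean. The difference with age was 0.08 (standard error 0.21, edgeR adjusted p = 0.890) in naïve and -0.59 (0.23, adjusted p = 0.328) in injured mice, where replicate 2 of the middle-aged pools was lowest.

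Sptlc2 encodes a catalytic subunit of serine palmitoyltransferase, which starts the route, and was the only member that rose. It stood at 66.4, 87.0 and 83.9 CPM in young naïve pools and at 54.3, 40.2 and 56.7 in middle-aged naïve pools, below them. In injured pools it stood at 85.4, 79.5 and 77.0 CPM in young and 82.5, 89.4 and 85.7 in middle-aged mice, which overlapped. The log2 fold change with injury was 0.03 (standard error 0.14, edgeR adjusted p = 0.887) in young and 0.77 (0.14, adjusted p = 0.000384) in middle-aged mice. With age it was lower in naïve mice, the log2 difference being -0.65 (standard error 0.14, edgeR adjusted p = 0.0252), and that call was lost without young naïve replicate 2 (adjusted p = 0.108), without young naïve replicate 3 (adjusted p = 0.0680) or without middle-aged injured replicate 1 (adjusted p = 0.0501). In injured mice the difference was 0.09 (0.14, adjusted p = 0.987).

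Sgms1 encodes the Golgi enzyme that makes sphingomyelin from ceramide. It stood at 139, 136 and 151 CPM in young naïve and 153, 109 and 148 in middle-aged naïve pools. The injured pools held 85.0, 80.1 and 85.9 CPM in young and 92.9, 105 and 92.6 in middle-aged mice, the latter all above the former. With injury its log2 fold change was -0.76 (standard error 0.13, edgeR adjusted p = 0.000193) and -0.50 (0.13, adjusted p = 0.00433) in young and middle-aged mice. The differences with age were -0.05 (standard error 0.13, edgeR adjusted p = 0.880) in naïve and 0.21 (0.13, adjusted p = 0.735) in injured mice.

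Whether the lesion acted differently at the 2 ages was tested by the interaction in edgeR, which called 0 of the 9 genes and 0.139% of all genes tested. At an unadjusted p under 0.05 there were 4 members, where 9.92% of all genes passed that threshold: Cers2 at 0.73 (standard error 0.18, edgeR adjusted p = 0.142), Elovl1 at 0.71 (0.21, adjusted p = 0.215), Sptlc2 at 0.74 (0.20, adjusted p = 0.179) and Aspa at -0.67 (0.31, adjusted p = 0.497). The first 3 had a called age difference in naïve and not in injured pools. DESeq2 called 2 of them, Cers2 (adjusted p = 0.0195) and Sptlc2 (adjusted p = 0.0392).

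The order of the levels changed with the group. Levels between genes are compared as RPKM, CPM divided by the summed length of a gene's exons in kilobases. Young naïve white matter held most Ugt8a (379 ± 53.1 RPKM, SD, n = 3), then Cers2 (154 ± 22.2) and Fa2h (140 ± 25.6), whose pools overlapped, and then Elovl7 (64.3 ± 13.6). Gal3st1 (37.9 ± 9.71 RPKM), Elovl1 (29.3 ± 4.32) and Aspa (29.3 ± 5.04) followed with overlapping pools, and Sgms1 (13.5 ± 0.796) and Sptlc2 (9.75 ± 1.37) came last. In middle-aged lesions Cers2 stood first at 73.0 ± 5.73 RPKM, above Ugt8a at 37.2 ± 8.14 with no overlap of pools. Elovl1 (17.4 ± 1.43 RPKM) came next, and Elovl7 (13.7 ± 2.26) and Fa2h (12.5 ± 2.76) overlapped each other, as did Fa2h and Sptlc2 (10.6 ± 0.427). The pools of Sgms1 also overlapped those of Fa2h. Sgms1 (9.18 ± 0.666 RPKM), Gal3st1 (5.41 ± 0.32) and Aspa (3.62 ± 1.41) closed the order. Middle-aged naïve and young injured pools both kept Ugt8a first, at 140 ± 17.3 and 95.6 ± 12.5 RPKM, and Cers2 after it, at 96.2 ± 11.5 and 70.4 ± 4.03.

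The ratio of Aspa to Ugt8a, chosen after their values were seen, set Aspa, whose naïve pools overlapped between ages, against Ugt8a, with the lowest log2 difference with age there. In RPKM it was 0.0739, 0.0780 and 0.0790 in the young naïve pools and 0.209, 0.248 and 0.210 in the middle-aged naïve pools. In the injured pools it was 0.0631, 0.0562 and 0.0530 in young and 0.103, 0.0732 and 0.108 in middle-aged mice. At either treatment every middle-aged pool lay above every young pool, with a log2 difference of 1.53 in naïve and 0.71 in injured mice. Between injured and naïve pools the log2 difference was -0.43 in young and -1.25 in middle-aged mice. Since the pair was picked for these values, they are a description and carry no test.

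Ugt8a, Gal3st1 and Aspa are shown by sequence too, as the pair of galactolipid genes that moved alike and a gene whose naïve pools, unlike theirs, overlapped between ages. Naïve pools of Elovl7 and Sgms1 overlapped between ages as well. In injured mice every middle-aged Aspa pool lay below every young one, as for the pair, though the difference was not called. The 250 bases before the first RefSeq start of each gene (GRCm38.p6, minus strand for Ugt8a and Aspa, plus strand for Gal3st1) are printed 5′ to 3′ with CpG dinucleotides in capitals. They lie at chr3:125938653-125938902, chr11:3983386-3983635 and chr11:73324638-73324887 and overlap no annotated exon of the enzyme genes described here. The Aspa window lies inside the longer annotated gene. The Ugt8a and Gal3st1 windows lie outside their genes, and their overlap with exons of other genes was not tested.
Ugt8a: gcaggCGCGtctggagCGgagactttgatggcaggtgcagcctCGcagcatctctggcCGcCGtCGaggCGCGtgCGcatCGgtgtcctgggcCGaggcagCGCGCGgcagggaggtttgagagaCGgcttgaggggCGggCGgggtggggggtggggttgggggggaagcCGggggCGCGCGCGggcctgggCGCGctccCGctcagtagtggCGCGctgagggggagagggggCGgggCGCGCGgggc
Gal3st1: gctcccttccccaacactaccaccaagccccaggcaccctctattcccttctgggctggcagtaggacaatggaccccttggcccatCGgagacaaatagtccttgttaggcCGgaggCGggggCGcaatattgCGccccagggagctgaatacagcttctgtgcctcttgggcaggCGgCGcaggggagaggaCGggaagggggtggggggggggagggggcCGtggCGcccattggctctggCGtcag
Aspa: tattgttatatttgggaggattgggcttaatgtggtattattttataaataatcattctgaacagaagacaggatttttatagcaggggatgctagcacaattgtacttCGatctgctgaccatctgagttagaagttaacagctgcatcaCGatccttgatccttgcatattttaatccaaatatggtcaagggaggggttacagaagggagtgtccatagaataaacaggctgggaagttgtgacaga
The Ugt8a window held 32 CpG and 76.8% G or C, and 4.39% of 27025 first promoter windows of this length had as many CpG or more. The Gal3st1 window held 11 CpG and 65.6% G or C, with 36% of windows having as many or more. The Aspa window held 2 CpG and 38.8% G or C, with 29.6% of windows having as few or fewer. First windows of Elovl7 and Sgms1, whose naïve pools also overlapped between ages, held 25 and 19 CpG. Those of Cers2, Elovl1 and Sptlc2, called lower with age in naïve mice, held 24, 18 and 11. The window of a later Gal3st1 start, entry 3, held 2 CpG, as many as that of Aspa. CpG counts were looked at after the values, and methylation was not measured here. The letters ACAAAG, which Sox proteins are known to bind, and CTGGCAC and CTGGTAC, close to what the myelin regulator Myrf is known to bind, were searched on both strands of the 300 bases around each RefSeq start. Of 15 entries for 8 members, 2 held any of them, both of Sgms1, while 18.7%, 5.01% and 2.24% of all 32851 promoters held the respective letters. No entry was found for Fa2h.

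Each member was also set against the mean log2 CPM of the 6 oligodendrocyte markers in the same pool. All 6 markers fell with injury at both ages, and with age 3 of 6 were lower in naïve and 5 of 6 in injured mice. Over 18 tests, none adjusted, labels were exchanged within age or within treatment (2-sided exact permutation test, smallest p 0.005). Each p belongs to the mean of the effects in the 2 strata, which are also given one by one. With injury 7 members rose relative to the markers and 1 fell at p under 0.05. The median log2 fold change of the markers was -2.10 in young and -2.39 in middle-aged mice, beside 0.00054 and -0.032 over all genes. A gene that did not change with injury thus also rises in this ratio. The share of all genes that rise in it was not computed, so whether the count is particular to the members was not tested. The log2 ratio of Sptlc2 was 2.17 higher after injury in young mice and 3.16 higher in middle-aged mice, and Elovl1 rose by 1.44 and 2.39 (exact permutation p = 0.005 for both). Sgms1 rose by 1.37 and 1.89 and Cers2 by 1.02 and 1.98 (exact permutation p = 0.005 for both). Elovl7 rose by 0.56 and 0.49 and Ugt8a by 0.15 and 0.45 (exact permutation p = 0.005 for both), and Gal3st1 by 0.31 and 0.61 (exact permutation p = 0.015). The ratio of Fa2h differed by 0.17 and -0.02 (exact permutation p = 0.39), and that of Aspa by -0.27 and -0.79 (exact permutation p = 0.005). The rise of Ugt8a was lost with 1 of the 6 markers left out (mean effect 0.23, exact permutation p = 0.06).

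Across the markers the median log2 difference with age was -0.63 in naïve and -0.86 in injured mice. A gene without an age difference therefore rises in the ratio here too. With age the ratio to the markers differed for Ugt8a by -0.81 in naïve and -0.51 in injured mice and for Fa2h by -0.47 and -0.66 (exact permutation p = 0.005 for both), and for Gal3st1 by -0.37 and -0.07 (exact permutation p = 0.13). The Ugt8a ratio was -1.82 to -1.70 in young naïve and -2.70 to -2.40 in middle-aged naïve pools, and -1.69 to -1.49 against -2.33 to -1.95 in injured ones, without overlap at either treatment. Sgms1 was higher relative to the markers by 0.56 in naïve and 1.07 in injured mice (exact permutation p = 0.005) and Elovl7 by 0.28 and 0.22 (exact permutation p = 0.01). Aspa was higher by 0.71 in naïve mice and by 0.20 in injured mice (exact permutation p = 0.02), where middle-aged replicate 2, at -5.69, lay below every young injured pool. Those for Aspa and Elovl7 were lost with 1 of the 6 markers left out (exact permutation p = 0.05 and 0.06), and that for Aspa also without middle-aged naïve replicate 1 or 2 (exact permutation p = 0.05). Cers2, Elovl1 and Sptlc2 had exact permutation p values of 0.07, 0.13 and 0.065, and without middle-aged naïve replicate 2 Cers2 and Sptlc2 had 0.04 and 0.02. With the marker Mobp left out Cers2 and Sptlc2 had exact permutation p values of 0.035 and 0.04, and with Mag left out Sptlc2 had 0.045. The ratios of Cers2, Elovl1 and Sptlc2 differed with age by -0.05, -0.14 and -0.03 in naïve and by 0.92, 0.82 and 0.96 in injured mice.

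**Figure D3:**
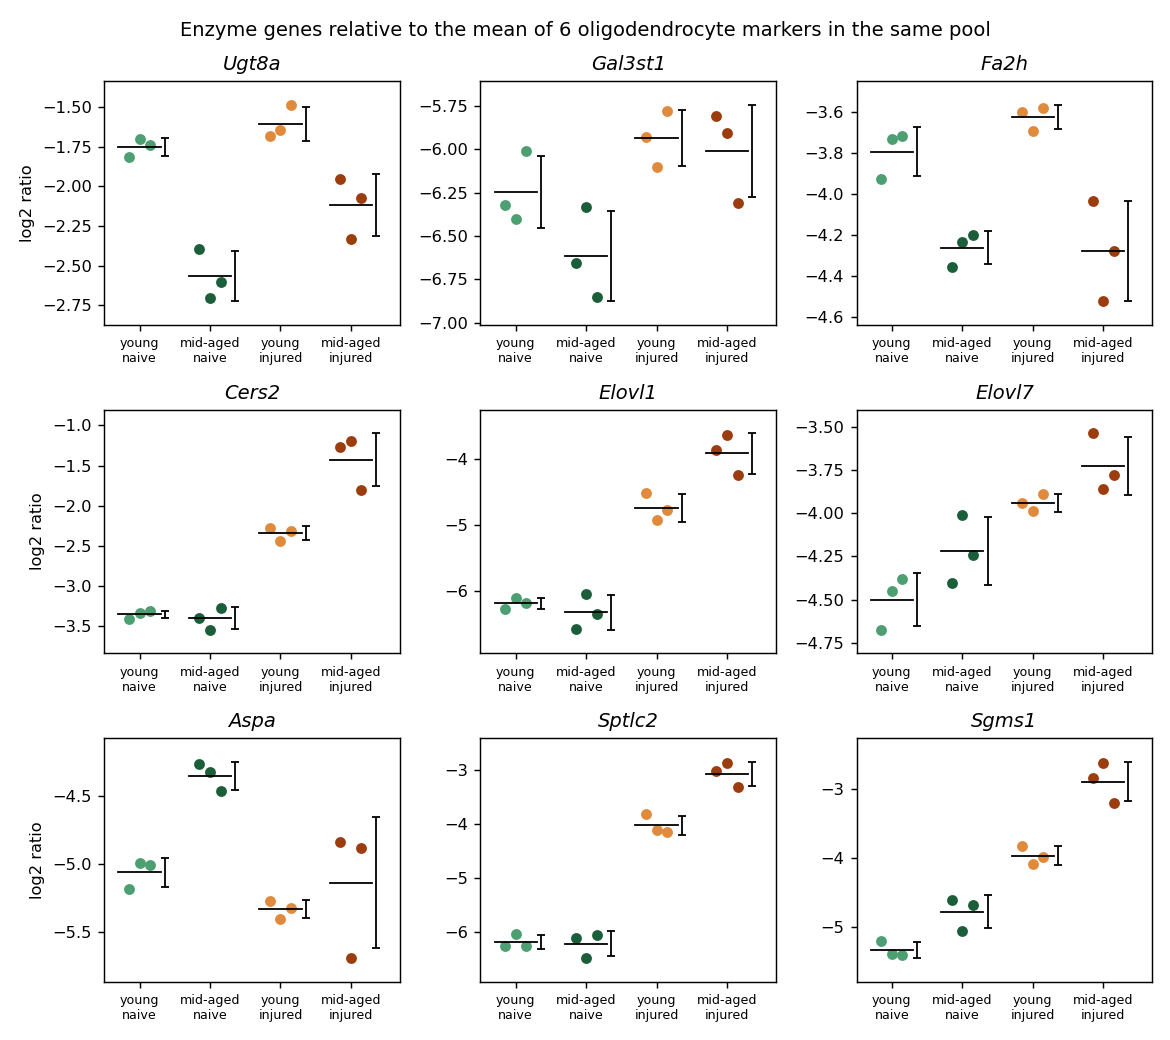
Log2 CPM of each enzyme gene minus the mean log2 CPM of 6 oligodendrocyte markers in the same pool (vertical axis, a scale of its own for each gene, not starting at 0), with the group mean (line) and SD (bar) over 3 pools. Ugt8a and Fa2h are lower in middle-aged than in young pools, Cers2, Elovl1, Sptlc2 and Sgms1 are higher in injured than in naïve pools, and Aspa is highest in middle-aged naïve pools.

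The members were compared with each other and with all other genes by the shape of their profile, as the root mean square distance between centred log2 CPM values over 12 pools and 12261 genes. Among the members Ugt8a and Fa2h were closest, at 0.203, and Aspa and Sptlc2 farthest apart, at 1.67. The protein-coding genes nearest to Ugt8a were Mal (0.172), which encodes a membrane proteolipid of myelin, Fa2h and Tspan2 (0.220), a tetraspanin of oligodendrocytes. Those nearest to Fa2h were Mal (0.139), Tspan2 (0.187) and Ugt8a. Gal3st1 lay nearest to Cldn14 (0.193), Elovl7 to Dact3 (0.0989) and the sphingosine phosphate receptor gene S1pr5 (0.120), and Aspa to Id4 (0.192). Cers2 lay nearest to Polr3e (0.124), Elovl1 to Adssl1 (0.139), Sptlc2 to Dhx29 (0.116) and Sgms1 to Mtf1 (0.0728), and these 4 members had the smallest spread of the 9 (SD 0.358 to 0.485 on the log2 scale over the 12 pools).

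Around the 9 members stand 80 other genes of sphingolipid metabolism, listed by role, of which 76 were tested (not Sptlc3, Cers3, Elovl3 and Acer1). With injury 26 rose and 20 fell in young mice, beside 28.3% and 26.3% of all genes. In middle-aged mice 34 rose and 20 fell, beside 29.2% and 29.3%. With age 1 was higher and 6 lower in naïve mice, beside 2.02% and 1.78%, and 2 were lower in injured mice, beside 0.908%. The median log2 fold change with injury was 0.04 in young and 0.26 in middle-aged mice.

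Genes that break sphingolipids down in lysosomes rose in lesions. Of 13, 11 rose and 1 fell at both ages, with a median log2 fold change of 1.87 in young and 2.25 in middle-aged mice. Of all genes 28.3% rose and 26.3% fell in young mice, and 29.2% and 29.3% in middle-aged mice. Hexa, which encodes a subunit of hexosaminidase, rose by 3.51 (standard error 0.17) in young and by 3.42 (0.16) in middle-aged mice. Galc, whose product removes the galactose that Ugt8a adds, rose by 1.29 (standard error 0.11) and 1.20 (0.11), while Arsa, whose product removes the sulfate that Gal3st1 adds, had values of 0.09 (0.19) and -0.43 (0.19) that did not pass. Smpd1, a sphingomyelinase gene, fell by 0.53 in young and 0.60 in middle-aged mice. The pan-myeloid markers were higher in the same pools, as given above, and their part in this rise was not tested. Galc was named after its values were seen.

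Genes that supply chains and acetate mostly fell. Of 10 further elongation genes, 6 fell at both ages, and 1 rose in young and 2 in middle-aged mice. Over all genes 26.3% fell and 28.3% rose in young mice, and 29.3% and 29.2% in middle-aged mice. Elovl6, an elongase of shorter chains, stood at 238 ± 29.8 CPM (SD, n = 3) in naïve and 74.2 ± 5.32 in injured tissue of young mice, and at 96.8 ± 5.65 and 50.1 ± 4.51 at middle age, log2 fold changes of -1.68 and -0.95. It was also lower with age, by -1.29 in naïve (edgeR adjusted p = 9.31e-05) and -0.57 in injured mice (edgeR adjusted p = 0.0392). Tecr, the last reductase of the elongation cycle, fell by 1.59 and 1.60, while Hacd4 rose by 3.57 and 3.00.

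Of 5 genes for N-acetylaspartate and acetate use, 4 fell and 1 rose at both ages, beside the same shares of all genes (26.3% and 28.3% in young, 29.3% and 29.2% in middle-aged mice). Acss2, which activates acetate in the cytosol, fell by 2.35 in young and 2.19 in middle-aged mice and was lower with age by -1.07 in naïve (edgeR adjusted p = 0.000880) and -0.92 in injured mice (edgeR adjusted p = 0.00652). Nat8l, which makes N-acetylaspartate, fell by 2.03 and 2.15 with injury and differed by -0.06 with age in naïve mice (edgeR adjusted p = 0.938). Acss1, the mitochondrial counterpart of Acss2, rose by 0.61 and 0.94. The levels of 4 neuron markers summed to 681 to 1976 CPM in young naïve and 275 to 480 in young injured pools, and to 1167 to 1239 and 363 to 446 CPM in middle-aged ones. Snap25 made up most of this sum and fell at both ages, as did Rbfox3. Syt1 fell in middle-aged mice and was not called in young mice (-0.02). Slc17a6 was not called in young mice (0.12) and rose by 1.52 in middle-aged mice. The part of these shifts in the fall of Nat8l was not tested.

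Counts for the remaining roles stand beside the shares over all genes. Of all genes 28.3% rose and 26.3% fell in young mice, and 29.2% and 29.3% in middle-aged mice. Of 13 genes of sphingoid base and ceramide synthesis, 4 rose and 3 fell in young and 6 rose and 3 fell in middle-aged mice: Cers6, a ceramide synthase for shorter chains, rose by 1.92 and 1.90, and Kdsr, the reductase after serine palmitoyltransferase, fell by 0.88 and 0.78. Of 7 genes for sulfate and sugar donors, 1 rose and 1 fell in young and 2 rose and 1 fell in middle-aged mice. The gene that fell was Papss1, which makes the sulfate donor, by 0.88 and 0.86. Of 6 genes for sphingomyelin synthesis and ceramide transfer, 1 rose in young and 2 in middle-aged mice, among them Plekha8 by 0.64 and 0.65, and 0 fell. Of 8 genes for glucosylceramide and gangliosides, 2 rose and 1 fell in young and 4 rose and 1 fell in middle-aged mice. Among them B4galt5, which makes lactosylceramide, rose by 1.34 and 2.19. Of 14 genes of neutral breakdown and sphingosine phosphate, 5 rose and 4 fell in young and 6 rose and 4 fell in middle-aged mice. Sgpl1, the sphingosine phosphate lyase, rose by 2.63 and 2.89, and Sgpp2, a phosphatase of sphingosine phosphate, fell by 2.61 and 2.07.

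**Figure D4:**
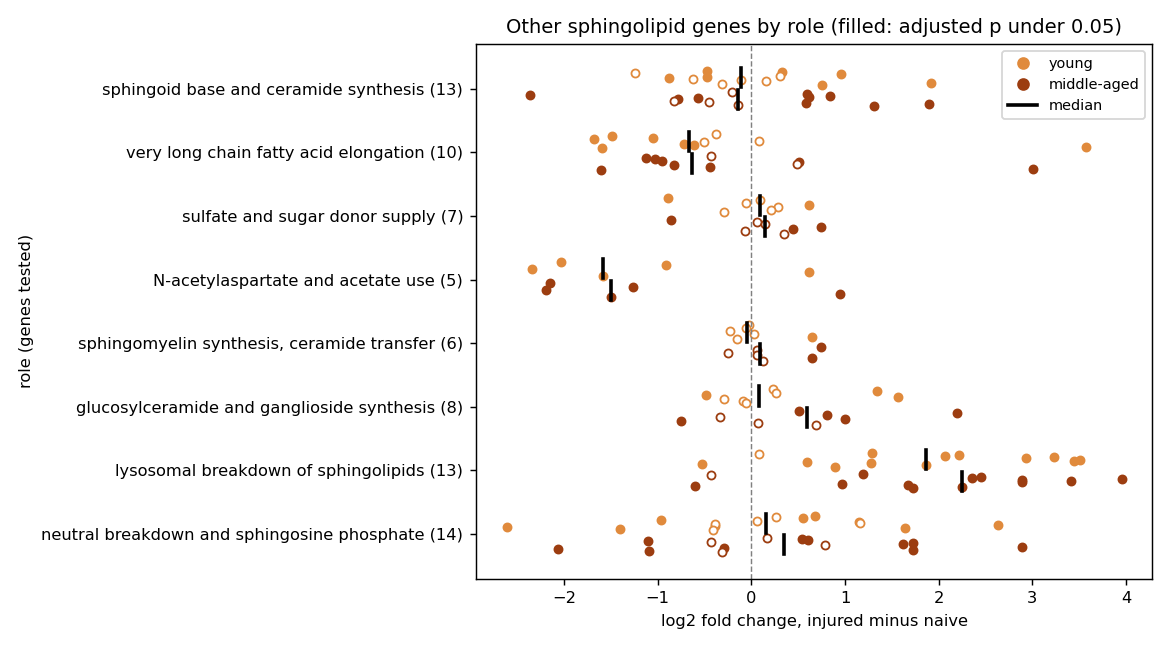
Log2 fold change with injury (horizontal axis) of 76 other sphingolipid genes, in rows by role with the number tested, for young and middle-aged mice. Filled points have an adjusted p under 0.05 and black bars mark medians. Lysosomal breakdown has medians of 1.87 and 2.25, and N-acetylaspartate and acetate use has medians of -1.58 and -1.50.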

How the data were processed

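Group and replicate came from the sample labels, and ages from the study's methods. RNA was amplified during library building. Per the labels and methods, the authors checked reads with FastQC 0.11.4, mapped them to GRCm38 with TopHat2 2.0.10 using Bowtie 1.1.2 and then took raw counts from featureCounts. They deposited 1 count per gene and pool, not normalized. The annotation release, strand setting and handling of shared reads are not given in the sources used here. GENCODE on GRCm38 gave positions and exon lengths to 45229 of 46078 identifiers (98.2%).

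Counts were fitted in R 4.3.3 with edgeR 4.0.16 (TMM, filterByExpr, glmQLFit, glmQLFTest), 1 coefficient per group over all 12 pools and no covariates, although the authors used pairwise DESeq2. Adjusted p-values (Benjamini-Hochberg, 15866 genes, threshold 0.05) measure only the spread between these pools. Standard errors were taken from the log2 fold change and the root of its F statistic. A prior count of 2 entered log2 CPM. Intervals and floors cover counting error only, since amplified reads are not independent molecules. Between pools of a group the chi-square per degree of freedom was at least 7.48, above counting noise, so each pool counted as 1 sample.

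The members, lists and tests were chosen with earlier results of these data known. Named are all members, from each role the 2 genes with the highest and the 2 with the lowest log2 fold change by injury in young mice (a selection of them here; results of 2 further genes are not reported here), markers, and the 3 nearest profiles by root mean square distance among genes with a mean log2 CPM of at least 1. The alternatives were library totals, DESeq2's size factors, no filter, DESeq2 1.42.0, a replicate block, only the 6 pools compared, and each pool or marker left out. In simulated counts for the young injury comparison (15543 genes), 110 of 200 genes changed 2-fold were recovered (55%), and 7.56% of calls were false. In the data 54.6% of genes were called in that comparison, far more than were changed in the simulation. Its shares therefore do not carry over to the data.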

Additional observations from a re-analysis of the deposited data

How the results depend on the processing

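Of 162 values for the 9 members under alternatives, direction and side of the threshold were kept in 160 for injury in young mice, 156 for injury in middle-aged mice, 152 for age in naïve mice and 148 for age in injured mice, and in 140 of 153 for the interaction. The reversals concern differences near 0. With library totals, the values were -0.0077 for Cers2 with age in injured mice, and -0.015 for Ugt8a and -0.025 for Gal3st1 in the interaction. With only the 6 pools compared, Elovl1 with injury in middle-aged mice was -0.0020. With each pool left out, the range was -0.082 to 0.10 for Sptlc2 with injury in young mice, -0.053 to 0.19 for Aspa and -0.14 to 0.087 for Sgms1 with age in naïve mice, -0.098 to 0.14 for Elovl1 with injury in middle-aged mice and -0.11 to 0.013 for Elovl1 with age in injured mice. It was -0.078 to 0.23 for Ugt8a and -0.17 to 0.19 for Gal3st1 in the interaction. The interaction called 1 member without a filter and 2 with DESeq2, against 0. With only the 6 pools compared, 2 members were lower with age in naïve mice, against 6, and Gal3st1, Cers2, Elovl1 and Sptlc2 were lost (edgeR adjusted p = 0.113, 0.144, 0.154 and 0.238). Of the ratios to markers, 3 rose with age, against 1 to 5 with each marker left out in turn. The cause of these changes was not tested.

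All-gene counts moved more: 603 genes differed with age in naïve mice against 1153 without a filter, 1085 with DESeq2 and 71 with 6 pools, and 182 in injured mice against 437, 446 and 818. The interaction had 22 against 329 without a filter and 240 with DESeq2. With a pool left out, the count fell to 261 with age in naïve mice (without young naïve replicate 2), lay between 45 (without middle-aged injured replicate 2) and 410 (without middle-aged naïve replicate 2) in injured mice, and between 3 (without young injured replicate 2) and 56 (without middle-aged naïve replicate 2) in the interaction. Deviations of same-numbered pools from their group means had correlations of -0.11 to 0.15, which showed no pairing by number. With 3 pools in each group they cannot exclude it. The replicate block changed no member call, with 8 members lower by injury in young mice and 529 genes called with age in naïve mice. Every member had 123 or more counts in each pool, and each group had 3 pools.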
